A study of Mus musculus with 6 samples.

Results

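Messenger RNA of mouse hearts was compared between a germline knockout of Rbpms and wildtype littermates, and the levels of Rbpms, its paralogue Rbpms2 and 8 other regulators of splicing in heart muscle were read out. The 10 genes were Rbpms, Rbpms2, Rbfox1, Rbfox2, Rbm20, Rbm24, Mbnl1, Mbnl2, Celf1 and Qk. They were chosen by name and not by a threshold, but with earlier results of these data known. The deposited table lists 20893 genes, and it held 9 of the 10 under these symbols and Qk as Qki, matched through its gene identifier. Genes were tested where 3 or more libraries reached a value of 10, and all 10 were among the 14974 that did. The knockout group, labelled R1KO, had 3 libraries and the Wildtype group 3. All were from hearts labelled C57BL6/J, and the labels name no further allele, agent or age. The series title calls the hearts embryonic while its design text calls them neonatal, so the stage was not settled here. The sources used here do not say which part of Rbpms is deleted, and no label ties a library to an animal of its own. Each group held male and female libraries by Xist and Y-linked genes, so neither group came from a single animal. Libraries of the same sex could still share an animal. The p-values therefore measure the spread between these samples, which may in part be technical.

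Splicing regulators of this kind are RNA-binding proteins that sit on short sequence words in or beside an exon of the precursor RNA and favour or block its inclusion. Each of them acts on many transcripts, and in heart muscle they set the isoforms of sarcomere, calcium handling and cytoskeletal proteins during development. RBPMS and RBPMS2 carry a single RNA recognition motif, bind RNA as dimers and prefer pairs of CAC words. RBFOX proteins read GCAUG, and MBNL and CELF proteins are known as opponents in the switch of fetal to adult isoforms. The values here count reads per gene, so they bear on the amount of each regulator's RNA and not on the isoforms it makes.

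Pairs of CAC words are shown for the member other than Rbpms that fell, Rbfox1, and for the closest relative of the deleted gene, Rbpms2. The windows were read from the GENCODE vM21 transcripts Rbfox1-201 (3061 bases) and Rbpms2-201 (1987 bases), build GRCm38, on the sense strand. Capitals mark 2 CAC words with 1 to 12 bases between them, and the 3 coding windows with the smallest gap that do not overlap each other are printed for each gene, 5′ to 3′ with T for U.
Rbfox1 at base 1184: cctaccacCACaCACttgctcca
Rbfox1 at base 415: tctccggCACcgcCACacagaca
Rbfox1 at base 363: ctcctaCACagacgCACtcggag
Rbpms2 at base 298: acgtcgagCACtgCACgggcgcgg
Rbpms2 at base 768: cacatacCACgttCACctaccca
Rbpms2 at base 611: agcgaCACcaaatccCACcagtg
Counted in this way, with overlapping pairs included, Rbfox1 held 10 pairs (8 coding and 2 in the 3′ UTR), a density of 3.27 per kilobase. Rbpms2 held 21 (7 coding, 1 in the 5′ UTR and 13 in the 3′ UTR), or 10.6 per kilobase. The median over the longest protein-coding transcripts of 13179 tested genes was 3.02 per kilobase, and 97.6% of them held at least 1 pair. The density of Rbpms2 was above that of 98.7% of these genes and the density of Rbfox1 above that of 55.2%. The count for Rbpms2 includes overlapping pairs in its coding part and its 3′ UTR, so its density partly reflects them. Among them is a run between bases 1388 and 1418, in the 3′ UTR. Densities without overlapping pairs were not computed. The other 8 members lay between 1.96 (Rbpms) and 4.24 (Mbnl1). A match of these letters describes the sequence and is not a binding site.

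The RBFOX word GCATG was present in 89.0% of the same transcripts, at a median of 0.871 per kilobase. Rbfox1-201 held it 1 time, in its coding part, printed with the word in capitals to show the one place where this transcript carries the letters its own protein reads.
Rbfox1 at base 511: aagcggctGCATGtgtccaac
Rbfox2 held 5 copies, Rbm20, Mbnl1 and Qk held 7 each, and Rbm24 held 0 in its 3086 bases.

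The libraries were comparable in depth. Deposited values are reads per gene after scaling by library and rounding, and undoing the scaling gave 4163230 to 5805712 reads per library. Over all 14974 tested genes, 141 changed between knockout and wildtype hearts (76 higher, 65 lower) at an adjusted p under 0.05, by limma on log2(value + 1) with Benjamini-Hochberg adjustment. By Xist and Y-linked genes, knockout replicate 3 and wildtype replicate 1 were female and the other 4 libraries male. Knockout replicate 3 stood apart from the other 5 on the first principal component, which held 45.1% of the variance. In it 6 epicardial markers summed to 705, against 1285 and 1450 in the other knockout libraries and 1374 to 1495 in wildtype, and 5 erythroid markers summed to 1643, against 651 and 766 in knockout and 615 to 813 in wildtype. All 9 cardiomyocyte markers were above 0 in every library and summed to 20634 to 23611 in knockout and 22632 to 25318 in wildtype hearts. The listed markers of the other cell types were above 0 in every library too, so detection alone does not test the tissue label. Mean recovered reads per base of exon stayed under 1 in every gene of the table with a length, with a highest value of 0.925, and ran from 0.0375 to 0.414 in the 10 members. The highest scaled value of any gene was 5138 to 6049 by library. Whether the values of abundant genes are compressed was not tested.

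Of the 10 regulators, 2 fell in knockout hearts, Rbpms and Rbfox1, and 0 rose. Among all tested genes 0.942% changed, 0.434% downwards and 0.508% upwards. Rbpms was the gene targeted, so its fall checks the labels. The remaining 8 had log2 fold changes between -0.15 and 0.16, with 95% intervals that together spanned -0.31 to 0.33.

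**Figure D1:**
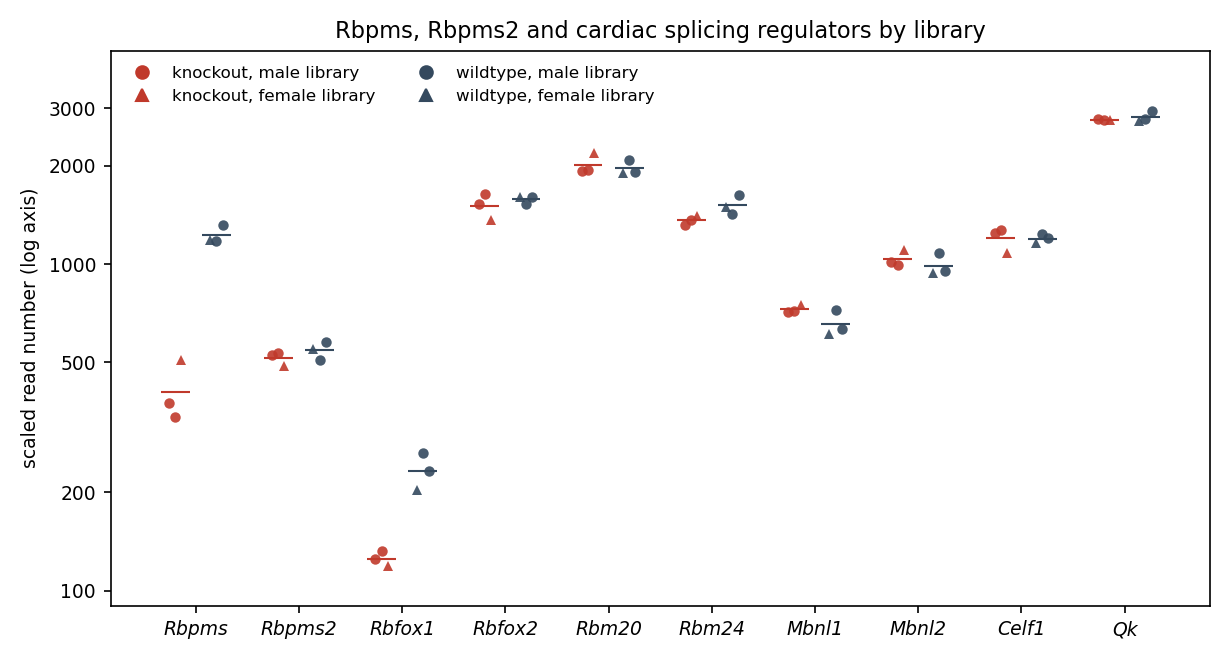
Scaled read number (log axis) of the 10 regulators in each library, knockout left of wildtype for each gene, with circles for male and triangles for female libraries and a line at each group's mean. The knockout points of Rbpms (340 to 507) and Rbfox1 (119 to 132) lie below all wildtype points of the same gene, and those of Rbm24 do so narrowly.

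Rbpms encodes the deleted RNA-binding protein and lies on the reverse strand of chromosome 8 (mm39, 34272671 to 34419891). Its values were 375, 340 and 507 in knockout replicates 1, 2 and 3, against 1182, 1176 and 1317 in wildtype replicates 1, 2 and 3. The groups did not overlap, and knockout replicate 3 was the highest of its group. As a percentage of the wildtype mean the 3 knockout libraries stood at 30.6%, 27.8% and 41.4%, and 400, 327 and 595 reads on the gene were recovered in them. On the log2 scale the change was -1.61 (SE 0.14, 95% interval -1.93 to -1.28; limma, adjusted p = 0.0124). Whether the reads left in the knockout come from exons outside the deletion was not tested, since the values are sums over the whole gene. In male libraries only the log2 fold change was -1.80 (adjusted p = 3.51e-07), and the single female knockout library differed from the single female wildtype library by -1.22. The adjusted p was 0.0523 without knockout replicate 1 and 0.0868, 0.0967 and 0.133 without wildtype replicates 1, 2 and 3, with log2 fold changes of -1.56, -1.63, -1.63 and -1.55.

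Rbpms2, the closest paralogue, is known from zebrafish and human heart muscle cells as a regulator of splicing in its own right. It stood at 526, 535 and 486 in knockout libraries, against 551, 510 and 577 in wildtype libraries, and the groups overlapped. Its log2 fold change was -0.08 with a 95% interval of -0.25 to 0.08 (limma, adjusted p = 0.627), so a rise in Rbpms2 RNA beyond 1.06-fold lies outside this interval. No stretch of 72 bases, the read length, was shared by any annotated transcripts of Rbpms and Rbpms2, whose longest identical run was 20 bases.

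Per exon length the paralogues were close in wildtype hearts. Rbpms stood at 62.1 ± 13.4 scaled reads per kilobase of exon in knockout and 187 ± 12.2 in wildtype hearts, and Rbpms2 at 206 ± 10.4 in knockout and 218 ± 13.5 in wildtype hearts (SD, n = 3 each). Rbpms thus made up 21.4%, 19.5% and 28.5% of the pair's level per length in knockout libraries, against 45.1%, 46.8% and 46.6% in wildtype libraries. The knockout and wildtype shares did not overlap (two-sided exact permutation test, p = 0.1, the smallest that 3 against 3 libraries allow). The summed level of the pair was 268 ± 3.04 per kilobase in knockout and 405 ± 24.4 in wildtype hearts (SD, n = 3 each), that is 66.2% of wildtype (two-sided exact permutation test, p = 0.1). Share and sum both contain the deleted gene, so their separation restates its fall and is no further evidence. Exon length is the union of all annotated exons, so a gene with many alternative exons has a lower value per kilobase than its main transcript would give. For Rbpms the union was 6556 bases, against 2547 in its longest protein-coding transcript, and for Rbpms2 2506 against 1987. The closeness in wildtype hearts and the sizes of the shares and sums therefore hold for the union lengths only.

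**Figure D2:**
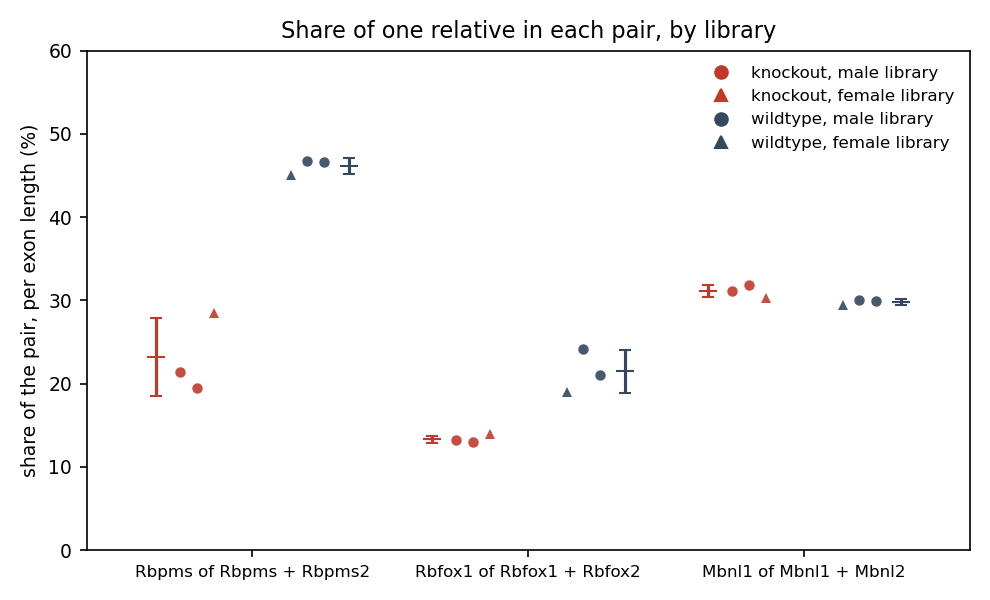
Share of 1 relative in each of 3 pairs, in percent of the pair's summed level per exon length, by library, with knockout left of wildtype, circles for male and triangles for female libraries, and bars for the mean and SD over 3 libraries. The share of Rbpms (19.5 to 28.5% in knockout, 45.1 to 46.8% in wildtype) and of Rbfox1 (13.0 to 13.9% in knockout, 19.0 to 24.2% in wildtype) separated the groups widely, that of Mbnl1 by less than 1 percentage point.

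Rbfox1 and Rbfox2 encode RBFOX splicing factors, and RBFOX1 is known to fall in failing mouse and human hearts. Rbfox1 lies on the forward strand of chromosome 16 (mm39, 5703219 to 7229390). It stood at 125, 132 and 119 in knockout libraries, against 204, 264 and 232 in wildtype libraries. The groups did not overlap, and the 3 knockout values lay within 13 of each other where the wildtype values spread over 60. The means were 125 ± 6.51 in knockout and 233 ± 30 in wildtype hearts (SD, n = 3 each). The log2 fold change was -0.88 (SE 0.12, 95% interval -1.15 to -0.62; limma, adjusted p = 0.0219). In fold terms the knockout level was 0.542 of wildtype, within 0.449 to 0.653. Between 127 and 140 reads were recovered per knockout library and between 196 and 276 per wildtype library, which makes Rbfox1 the member with the fewest reads.

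Rbfox1 was lower in knockout libraries within each sex. In male libraries only its log2 fold change was -0.94 (limma, adjusted p = 0.00424), and the 1 female knockout library differed from the 1 female wildtype library by -0.77. Its adjusted p was 0.0896 without knockout replicate 1 and 0.108, 0.0974 and 0.156 without wildtype replicates 1, 2 and 3, with log2 fold changes of -0.88, -0.98, -0.79 and -0.88. Without knockout replicate 3, the library that stood apart, it was 0.00203.

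Rbfox2, the more abundant relative, did not pass the test. It stood at 1523, 1640 and 1367 in knockout libraries, against 1604, 1530 and 1602 in wildtype libraries, with overlapping groups. Its log2 fold change was -0.07 (95% interval -0.24 to 0.10; limma, adjusted p = 0.703). Per exon length Rbfox1 made up 13.2%, 13.0% and 13.9% of the RBFOX pair in knockout libraries, against 19.0%, 24.2% and 21.1% in wildtype libraries, without overlap (two-sided exact permutation test, p = 0.1). This separation restates the fall of Rbfox1 given above and is no further evidence. The summed level of the pair was 214 ± 18.3 per kilobase in knockout and 247 ± 3.18 in wildtype hearts (SD, n = 3 each), or 86.6% of wildtype. The longest run of bases shared by their transcripts was 29, so a read of 72 bases cannot match both in full.

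Smooth muscle markers were lower in sum in the same libraries as Rbpms and Rbfox1. The 7 markers totalled 2702, 3067 and 3330 in knockout libraries, against 3664, 3417 and 3682 in wildtype libraries, with none at 0. Of the 7, 0 changed by limma and 0 by voom, which is limma's fit to the recovered reads, and 4 were lower at an unadjusted p under 0.05, as were 7.86% of all tested genes. Of the 7, 5 had a log2 fold change below 0 and 2 above, between -1.33 and 0.73. The smooth muscle myosin gene Myh11 had the smallest p, at 205 ± 29.7 in knockout and 310 ± 25.8 in wildtype hearts (SD, n = 3 each; limma, log2 fold change -0.61, adjusted p = 0.057). Its adjusted p was under 0.05 in 5 of 17 alternatives, within 0.00951 to 0.261. The part of the smooth muscle markers in the falls of Rbpms and Rbfox1 was not tested. In RNA of a whole heart, fewer cells of a type and less RNA per cell cannot be told apart.

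Markers of the other cell types gave 0 changed genes by limma and by voom. The smallest p among 6 endothelial markers belonged to Emcn, an endothelial sialomucin, at 531 ± 56.4 in knockout and 399 ± 18.5 in wildtype hearts (SD, n = 3 each; limma, adjusted p = 0.0669). Among 6 fibroblast markers it was Tcf21, a transcription factor of cardiac fibroblasts, at 381 ± 39.6 in knockout and 292 ± 3.61 in wildtype hearts (SD, n = 3 each; limma, adjusted p = 0.0859), while the other 5 fibroblast markers lay below 0 and the median log2 fold change of the 6 was -0.08. Endothelial markers summed to 6452 to 6889 in knockout and 6154 to 6632 in wildtype libraries, and fibroblast markers to 9722 to 11792 in knockout and 10307 to 12184 in wildtype libraries. Of the 6 endothelial markers, 4 had a log2 fold change above 0 and 2 below, with a median of 0.07. The sums of 4 leukocyte markers were 550 to 678 in knockout and 622 to 677 in wildtype libraries. Of these 4 markers, 2 had a log2 fold change below 0 and 2 above, with a median of -0.03. The smallest p among them belonged to Cd68, of macrophages, at a log2 difference of -0.28 (adjusted p = 0.343, limma). Among cardiomyocyte markers it was Tnnt2, cardiac troponin T, with -0.20 (limma, adjusted p = 0.189), and 8 of the 9 lay below 0. Among 6 epicardial markers it was Wt1 with 0.28 (limma, adjusted p = 0.185), the 1 of them above 0, and the median log2 fold change of the 6 was -0.39. At an unadjusted p under 0.05 stood 1 of 9 cardiomyocyte, 1 of 6 endothelial, 1 of 6 fibroblast, 2 of 6 epicardial, 0 of 4 leukocyte and 0 of 5 erythroid markers, against 16.4% of all tested genes.

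**Figure D3:**
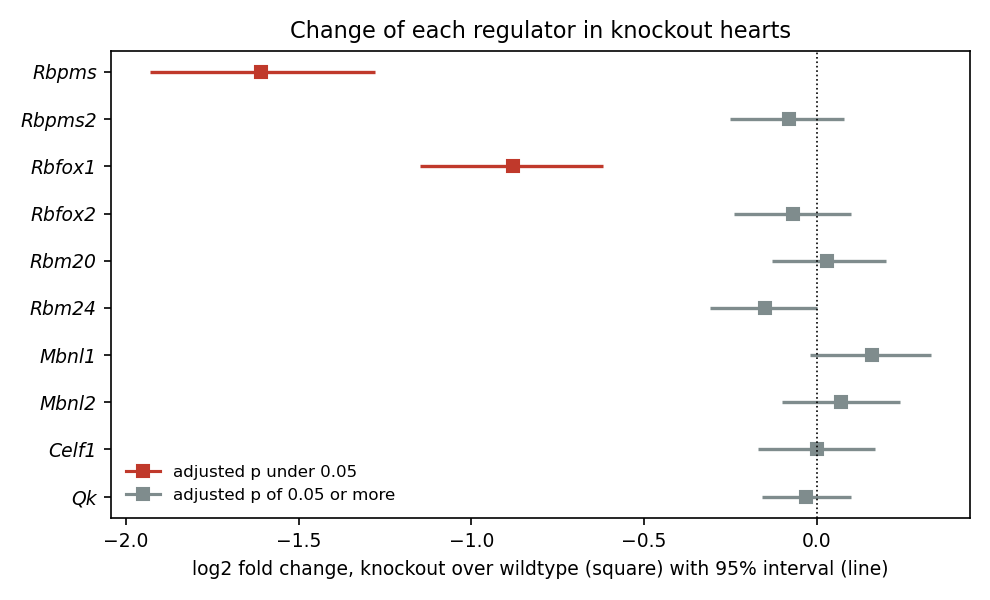
Log2 fold change of each regulator, knockout over wildtype (square), with its 95% interval from limma (line), in red where the adjusted p was under 0.05. Rbpms (-1.61) and Rbfox1 (-0.88) lie left of 0 with intervals that do not reach it, and the other 8 lie between -0.15 and 0.16.

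Rbm20 and Rbm24 encode muscle RNA-binding proteins. RBM20 represses exons of titin and of calcium handling genes, and its mutation causes dilated cardiomyopathy, while RBM24 promotes the inclusion of muscle exons. Rbm20 stood at 1922, 1938 and 2184 in knockout libraries, against 1897, 2085 and 1914 in wildtype libraries, with the groups overlapping. Its log2 fold change was 0.03 (95% interval -0.13 to 0.20; limma, adjusted p = 0.848). Rbm24 stood at 1313, 1363 and 1406 in knockout libraries, against 1491, 1424 and 1631 in wildtype libraries. Its groups did not overlap, but by only 18, and the difference did not pass the test (limma, log2 fold change -0.15, 95% interval -0.31 to 0.00, adjusted p = 0.308). With Rbpms and Rbfox1 this made 3 of 10 regulators that were lower without overlap, as were 10.9% of all tested genes, while groups did not overlap in either direction in 22.0%.

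Mbnl1 and Mbnl2 encode muscleblind-like proteins, which promote adult isoforms and are sequestered by repeat RNA in myotonic dystrophy. Mbnl1 stood at 715, 721 and 750 in knockout libraries, against 611, 724 and 631 in wildtype libraries. Wildtype replicate 2 lay among the knockout values, so the groups overlapped (limma, log2 fold change 0.16, 95% interval -0.02 to 0.33, adjusted p = 0.345). Mbnl2 stood at 1015, 992 and 1103 in knockout libraries, against 939, 1078 and 950 in wildtype libraries, with the groups overlapping (limma, log2 fold change 0.07, 95% interval -0.10 to 0.24, adjusted p = 0.698). Mbnl1 made up 31.1%, 31.8% and 30.3% of the pair per exon length in knockout libraries, against 29.4%, 30.1% and 29.9% in wildtype libraries. These shares did not overlap (two-sided exact permutation test, p = 0.1), the same p as for the Rbpms and RBFOX pairs but at a far smaller difference. Shares and sums of the 3 pairs made 6 such tests, and adjusted over these 6 by the Benjamini-Hochberg method each exact permutation p of 0.1 becomes 0.12.

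Celf1 encodes a CELF protein that favours fetal isoforms in heart, and Qk encodes Quaking, a KH domain protein that binds ACUAAC words and acts on splicing in smooth and cardiac muscle. Celf1 stood at 1245, 1268 and 1084 in knockout libraries, against 1158, 1233 and 1199 in wildtype libraries. Knockout replicate 3 was the lowest of the 6, and the log2 fold change was 0.00 (95% interval -0.17 to 0.17; limma, adjusted p = 1.0). Qk had the highest value of the 10 in every library, with 2788, 2770 and 2756 in knockout libraries, against 2751, 2784 and 2947 in wildtype libraries. The knockout libraries lay within 32 of each other, and the log2 fold change was -0.03 (95% interval -0.16 to 0.10; limma, adjusted p = 0.844).

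The order of the members per exon length was led by Rbm24 in both groups, at 390 ± 13.3 scaled reads per kilobase in knockout and 434 ± 30.3 in wildtype hearts, and Rbm20, at 297 ± 21.6 in knockout and 289 ± 15.3 in wildtype hearts (SD, n = 3 each). In wildtype hearts Rbpms2 (218), Qk (199), Rbfox2 (194) and Rbpms (187) followed, each with a range that overlapped that of the next. Celf1 (142), Mbnl2 (82.5), Rbfox1 (53.0) and Mbnl1 (35.0) came below them with ranges that did not overlap. In knockout hearts Rbpms stood eighth of the 10 instead of sixth, below Celf1 (142) and Mbnl2 (86.4), and Rbfox1 (28.5) stood below Mbnl1 (38.9) as the lowest. Rbpms stayed above Rbfox1 in every library of either group. This order holds for the union of annotated exons only, which was 6556 bases for Rbpms and 18717 for Mbnl1. Their longest protein-coding transcripts had 2547 and 5655 bases, and the order by transcript length was not computed.

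Across the 6 libraries the genes whose log2(value + 1) followed that of Rbpms most closely were Igsf1, Epb41l4b and Lsm14b, with Pearson r of 0.9984, 0.9942 and 0.9936. Igsf1, a membrane protein of the immunoglobulin superfamily, stood at 27, 24 and 32 in knockout libraries, against 55, 54 and 61 in wildtype libraries (limma, log2 fold change -1.02, adjusted p = 0.0537). Epb41l4b, a FERM domain protein, stood at 63, 64 and 75 in knockout libraries, against 98, 97 and 100 in wildtype libraries (limma, adjusted p = 0.112). Lsm14b, an RNA-binding protein, stood at 554, 544 and 563 in knockout libraries, against 607, 601 and 604 in wildtype libraries (limma, adjusted p = 0.324). Those closest to Rbpms2 were Pkig (0.9975), Glrx (0.9927) and Tm9sf2 (0.9909), with adjusted p of 0.618, 0.487 and 0.626 by limma. These are the highest of 14974 correlations over 6 libraries that share 2 genotypes, so they describe these libraries only. Among the members themselves Rbfox1 followed Rbpms with r = 0.92 over the 6 libraries, whose 2 genotypes both genes separate.

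Other genes of the splicing machinery gave 1 changed gene among 116 tested of 128 listed, or 0.862%, against 0.942% of all tested genes. The groups did not overlap in 17.2% of them, against 22.0% of all tested genes, and their median log2 fold change was -0.02, against 0.00. The changed gene was Pcbp4, a poly(C)-binding protein of the KH domain family and a known p53 target. It stood at 736, 750 and 792 in knockout libraries, against 610, 559 and 614 in wildtype libraries, with no overlap. Its log2 fold change was 0.35 (SE 0.07; limma, adjusted p = 0.0499). That value is at the edge of the threshold, and it was under 0.05 in 6 of 17 alternatives, within 0.0185 to 0.231.

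Of the hnRNP, PTB and PCBP genes, which include the general repressors of exons, the other 27 did not pass. Their list of 28 had a median log2 fold change of -0.04, with 19 below 0. Of 12 tested SR proteins, the general activators of exons, 0 changed by limma and 0 by voom, with 1 at an unadjusted p under 0.05. This was Srsf3, a short SR protein, at 736 ± 45.7 in knockout and 846 ± 35.6 in wildtype hearts (SD, n = 3 each; limma, log2 fold change -0.20, adjusted p = 0.197). Of 43 genes of the core spliceosome 0 changed by limma and 0 by voom, with 1 at an unadjusted p under 0.05, and 22 lay above 0 and 21 below. That 1 was Sf3b3, a subunit of the U2 particle, at 806 ± 52.7 in knockout and 706 ± 12.8 in wildtype hearts (SD, n = 3 each; limma, log2 fold change 0.19, adjusted p = 0.207).

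Relatives of the 10 regulators gave 0 changed genes of 6 tested by limma and 0 by voom, while an unadjusted p under 0.05 was reached by 2, of which 1 was higher in knockout hearts and 1 lower. These 2 were 33.3% of the 6, against 16.4% of all tested genes. The smallest p belonged to Celf4, a CELF protein best known from neurons, at 60, 60 and 84 in knockout libraries, against 34, 42 and 28 in wildtype libraries. Its groups did not overlap, at a log2 fold change of 0.95 (SE 0.22; limma, adjusted p = 0.087). The RBFOX relative Rbfox3, a neuronal gene, was too low to be tested, at 15, 3 and 4 in knockout libraries, against 5, 5 and 2 in wildtype libraries. Among 27 tested regulators of other kinds 0 changed by limma and 0 by voom, with 3 at an unadjusted p under 0.05, all of them higher, or 11.1%, against 8.54% of all tested genes. Esrp2, an epithelial splicing regulator, had the smallest p, at 22, 16 and 14 in knockout libraries, against 4, 5 and 7 in wildtype libraries (limma, log2 fold change 1.54, adjusted p = 0.076).

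**Figure D4:**
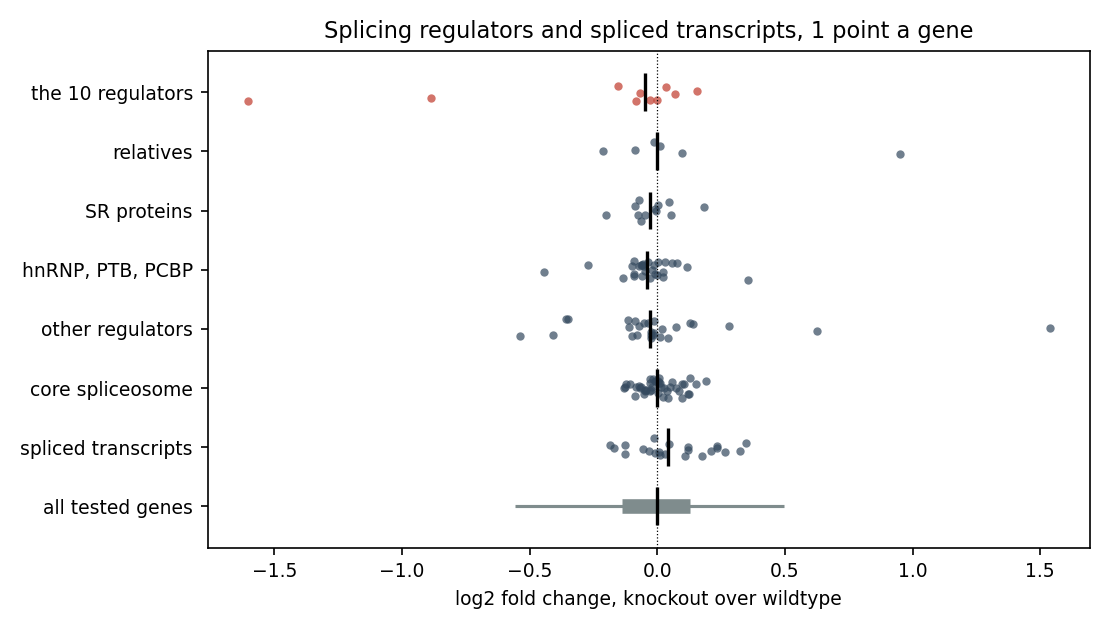
Log2 fold change, knockout over wildtype, with 1 point for each tested gene of the 10 regulators (red), of 5 lists of other splicing genes and of transcripts they splice (blue), with a black line at each median. The grey bar runs from the 25th to the 75th percentile of all 14974 tested genes (-0.14 to 0.13) and the grey line the range from their 5th to their 95th percentile (-0.56 to 0.50). Most points of the splicing lists lie within that range, and Rbpms and Rbfox1 lie left of it.

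Transcripts known to be spliced by RBM20 in heart or by RBPMS in rat smooth muscle cells were examined at the level of the gene, which leaves their isoforms unmeasured. Of these 22 genes 0 changed by limma and 0 by voom, with 5 at an unadjusted p under 0.05, all of them higher. That is 22.7% of the 22, against 8.54% of all tested genes that were higher and 16.4% in either direction at that p. Of the 22, 14 had a fold change above 0, their median log2 fold change was 0.04, and the groups did not overlap in 40.9%, against 22.0% of all tested genes. The smallest p belonged to Pdlim5, a PDZ and LIM protein of the Z-disc, at 2080, 1892 and 1937 in knockout libraries, against 1597, 1687 and 1745 in wildtype libraries (limma, log2 fold change 0.23, adjusted p = 0.13). Ttn and Camk2d, the best-known transcripts of RBM20, were named after their values were seen. Ttn, which encodes titin, stood at 5257, 5335 and 5097 in knockout libraries, against 4670, 5632 and 5098 in wildtype libraries (limma, adjusted p = 0.872). Camk2d, which encodes the delta isoform of calcium/calmodulin-dependent kinase II, stood at 1435, 1441 and 1377 in knockout libraries, against 1233, 1315 and 1367 in wildtype libraries, with no overlap (limma, log2 fold change 0.12, adjusted p = 0.376).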

How the data were processed

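The 6 stranded mRNA libraries of mouse hearts were sequenced with single-end reads of 72 bases, per the labels' protocols. The submitters' processing notes name, without role or order, Trimmomatic (0.39), STAR (2.7.11a), Picard (3.0.0), featureCounts (2.0.4), DESeq2 (1.36.0) and the build mm39. How strand was set in counting and whether genes were filtered is not stated there. The deposited values are a score: the authors scaled the reads per gene by library and rounded them to whole numbers, as regular gaps and doublings among low values show. The factors, 0.8524 to 1.1798, gave the recovered reads, and every value was reached from a whole read number after rounding. In the libraries with factors under 1, 6.72% to 30.54% of values up to 400 could come from more than 1 read number.

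limma 3.58.1 under R 4.3.3, using statmod 1.5.0, with mean-dependent and robust variance moderation, was run on log2(value + 1) of all 6 libraries. The 14974 genes with 10 or more in 3 or more libraries were tested, with Benjamini-Hochberg adjustment over all of them and a threshold of 0.05. Fold changes on this scale understate the change of low genes. Whether those of abundant genes are understated too was not tested. Alternatives covered scaling, voom on recovered reads, filter, pseudocount, moderation, replicate block, library sex and each library left out, with the filter always on all 6 libraries. The limma fit was tested on simulated data. The members and gene lists were chosen with earlier results of these data known. All members were named, with up to 4 changed genes of each list or else the gene with the smallest p, and 3 genes most like Rbpms and Rbpms2. One gene that this rule names is not reported here. Celf6, Esrp1 and Raver1 of the lists were not analysed here. Exon lengths and transcripts came from GENCODE vM21 (GRCm38), matched by identifier, and coordinates of genes from the deposited table.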

Additional observations from a re-analysis of the deposited data

How the results depend on the processing

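The count of all changed genes, 141, moved to 77 with voom on recovered reads (30 higher, 47 lower), 218 with no filter, 83 with a filter of at least 50, 24 without trend and robust moderation, 23 with a replicate block, 223 with library sex as a covariate and 256 when only male libraries were used. It ran from 0 to 727 when 1 library was left out, with 0 without wildtype replicate 2 or 3, where 2176 and 1852 genes had an unadjusted p under 0.05. The count of changed members, 2, was 1 without trend and robust moderation and 1 with the replicate block, where Rbfox1 had adjusted p of 0.0713 and 0.0763 at the same log2 fold change of -0.88, and ran from 0 to 2 with 1 library left out. The log2 fold change of Rbpms ran from -1.77 to -1.49 with 1 library left out, and it was past the threshold in 13 of 17 alternatives, Rbfox1 in 11 of 17. The count of other changed splicing regulators, 1, was 0 with quantile normalization, voom, a filter of at least 50, a pseudocount of 0.5, no trend and robust moderation, the replicate block or male libraries only, and 0 to 3 with 1 library left out. The count of spliced transcripts, 0, was 1 in male libraries only and 0 to 1 with 1 library left out. In male libraries only Rbfox2 (0.01), Rbm20 (-0.05), Mbnl2 (-0.01) and Celf1 (0.05) had the opposite sign, all with adjusted p above 0.8. With 1 library left out the log2 fold change of Rbfox2 ran from -0.13 to 0.00, of Rbm20 from -0.02 to 0.08, of Celf1 from -0.04 to 0.07 and of Qk from -0.05 to 0.00. The cause of these shifts was not tested. Libraries of equal replicate number had correlations of their deviations from the group means of -0.169, -0.111 and -0.130 for numbers 1, 2 and 3. These give no sign of pairing by replicate number, but 3 libraries a group cannot settle it. Why a call was lost under the block was not tested. Rbfox1 had the fewest recovered reads of the 10 members, 127 to 276 per library, and the effect of depth on the members was not measured.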
